A study of Prunus armeniaca and Prunus mume with 8 samples.

Results

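Fruit RNA of 2 cultivars of Japanese apricot (Prunus mume), Ruantiaohongmei and Xiyeqing, was compared on Agilent arrays. The members are the 4 P. mume arrays among 8 in the series, chosen by the cultivar in the labels. They comprise 2 arrays of Ruantiaohongmei and 2 of Xiyeqing. The other 4 arrays, from the apricot (Prunus armeniaca) cultivars Manao and Zhenkui, give levels to set beside them. In the main fit they also enter the estimate of spread behind every SE and p-value, and the difference of cultivar differences below. No treatment or engineered allele is named for any cultivar, and both P. mume cultivars were sampled as untreated fruit between 3 and 13 weeks after full bloom, through stages 1 to 8. Per the labels each array held RNA of mixed stages, from the extracts that passed a quality check, coded R2 and R4 for Ruantiaohongmei and X1 and X3 for Xiyeqing. The labels say neither which stages entered which array, nor what the numbers in these codes mean, nor whether the extracts came from separate trees. The p-values below therefore speak only for the variation among the extracts on the 8 arrays, part or all of which may be technical.

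A stone fruit grows in 2 rapid phases separated by a slow one, in which the stone hardens around the seed. At ripening, ethylene is made from methionine by ACC synthase and ACC oxidase, and expansins and polygalacturonases loosen the cell wall. Skin colour in red-fruited Prunus depends on flavonoid synthesis, whose entry enzyme is chalcone synthase. Leaves, seeds and unripe flesh of Prunus also hold cyanogenic glucosides such as prunasin and amygdalin, which are broken down by beta-glucosidases and mandelonitrile lyases with release of hydrogen cyanide.

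Levels are log2 signals relative to the 75th percentile of each array, so 0 equals that percentile. Levels of different probes cannot be set against each other, and every difference is Ruantiaohongmei minus Xiyeqing on the log2 scale. Testing covered 9125 of 10384 probes, those that both arrays of some cultivar measured well above background. The Ruantiaohongmei arrays had 8542 and 7806 probes well above background, and the Xiyeqing arrays 8901 and 8982. The lowest level on an array, shared by its dimmest probes, was -7.71 and -7.08 on the Ruantiaohongmei arrays and -8.07 and -7.92 on the Xiyeqing arrays. Both Ruantiaohongmei arrays lay in the first row of the slide and both Xiyeqing arrays in the second, so row and cultivar cannot be told apart. Probe sequences were not used here, and most described probes were named after another Prunus species, so less transcript and a poorer match of the transcript to the probe cannot be told apart. In whole fruit, fewer cells of a type and less RNA per cell cannot be told apart either.

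By correlation, arrays of a cultivar were not clearly closer to each other than arrays of different cultivars. Across tested probes, which are not independent replicates, the Ruantiaohongmei arrays correlated with each other at r = 0.970 and the Xiyeqing arrays at 0.969. The 4 pairs of a Ruantiaohongmei with a Xiyeqing array lay between 0.965 and 0.971. A gap of at least 2-fold separated the Ruantiaohongmei arrays at 1032 probes and the Xiyeqing arrays at 766, against 925 to 1034 for the 4 pairs between cultivars. The apricot arrays of a cultivar were closer to each other, at r = 0.992 for Manao and 0.981 for Zhenkui.

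Genes of the ripe fruit and the seed showed wide gaps within a cultivar. Endo-polygalacturonase, which cuts pectin in softening flesh, has 6 described probes. All 6 were well above background on Ruantiaohongmei replicate 2, at 1.25 to 5.96, and on Xiyeqing replicate 2, at -3.0 to 0.58. On Ruantiaohongmei replicate 1 and Xiyeqing replicate 1 only 1 of the 6 was well above background, and the levels lay at -7.71 to -4.91 and -8.07 to -5.34. Endo-polygalacturonase was thus high on 1 array of each cultivar and near background on the other. Because of this, 5 of the 6 probes were not tested. The seed probes (oleosins of the oil body and pru1 and pru2, almond seed storage proteins) were high on a single array. All 4 were between 1.01 and 2.68 on Ruantiaohongmei replicate 2. They lay at -7.71 to -4.83 on Ruantiaohongmei replicate 1, at -8.07 to -4.60 on Xiyeqing replicate 1 and at -5.93 to -3.80 on Xiyeqing replicate 2. The part of these array differences in the results below was not tested.

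**Figure D1:**
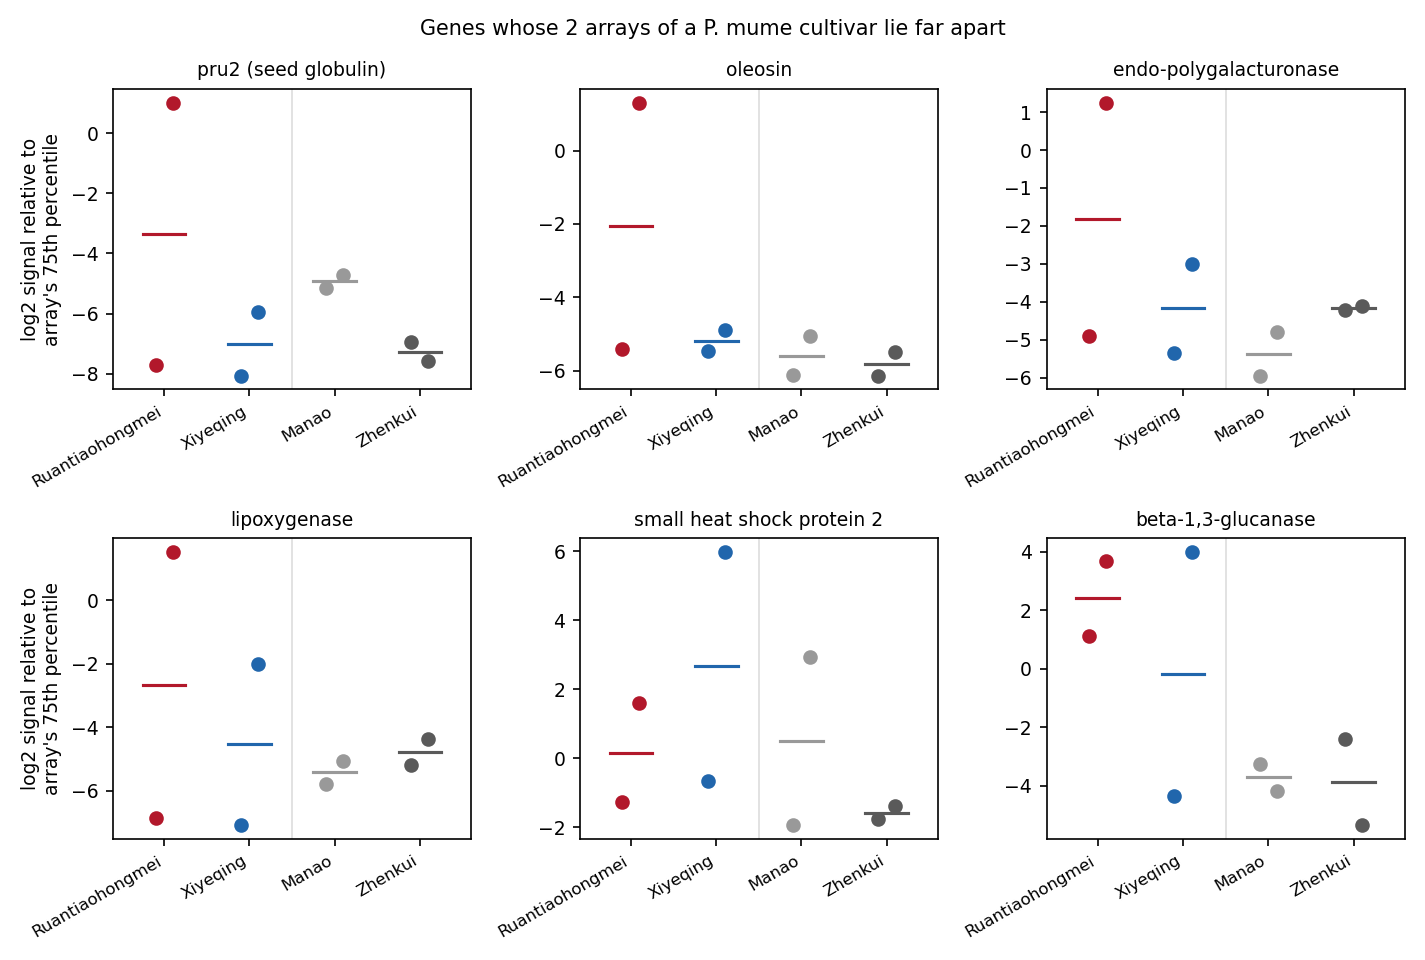
Level of 6 genes on each array (points, log2 relative to the 75th percentile; short lines are means of 2 arrays), in the order Ruantiaohongmei, Xiyeqing, Manao, Zhenkui. The seed protein pru2 lies 8.71 apart between the Ruantiaohongmei arrays and 2.13 between the Xiyeqing arrays, and beta-1,3-glucanase 2.56 and 8.37.

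At an adjusted p under 0.05 (limma, Benjamini-Hochberg over all tested probes), 54 of 9125 probes differed between the cultivars, 0.592% of those tested. Ruantiaohongmei was lower at 47 (0.515%) and higher at 7 (0.0767%). All 54 had a fitted difference of at least 2-fold. At 25 of them neither Ruantiaohongmei array was well above background, so only bounds exist. Of these bounds 10 were under 2-fold, and 2 probes allowed none. The median over the lower probes was -2.46 and over the higher ones 2.87, while the median over all tested probes was -0.06. At an unadjusted p under 0.05 there were 679 probes (7.44%), 484 lower and 195 higher in Ruantiaohongmei. Without Xiyeqing replicate 1 only 22 probes were called, and with the 4 P. mume arrays fitted alone only 13. Between the 2 apricot cultivars the same limma fit called 0 probes, with 1022 at an unadjusted p under 0.05.

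**Figure D2:**
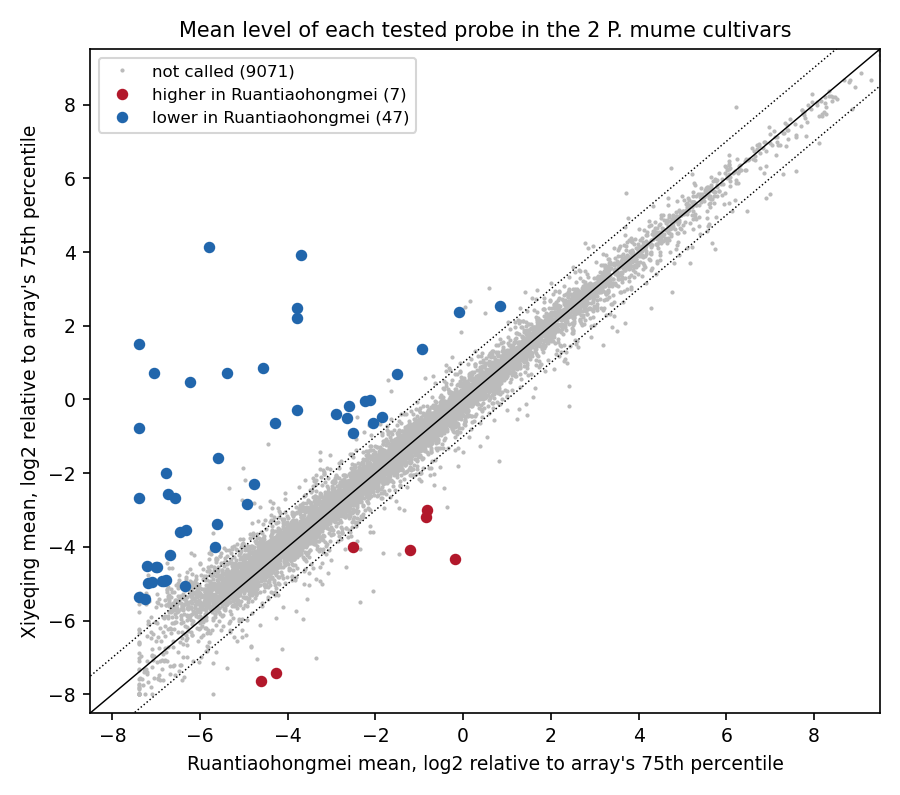
Mean level of each tested probe in Ruantiaohongmei and in Xiyeqing (log2 relative to the 75th percentile), with the 54 called probes coloured by direction. Most called probes (47) lie on the side where Ruantiaohongmei is lower, many of them near the lowest Ruantiaohongmei levels.

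Only 3 of the 54 called probes carry the name of a protein, and all 3 were lower in Ruantiaohongmei. They were chalcone synthase, inosine-5'-monophosphate dehydrogenase and a putative acetone-cyanohydrin lyase. Among all 236 tested probes that name a protein this is 1.27%, against 0.592% of all probes. At an unadjusted p under 0.05 it was 18 of the 236 (7.63%), close to the 7.44% over all probes. The authors wrote descriptions only for probes in lists selected on these samples, so these shares are not independent evidence.

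Chalcone synthase (DQ856583.1, named from Prunus cerasifera) joins coumaroyl-CoA and malonyl-CoA into the first flavonoid, from which anthocyanins and flavonols are made. Its level was -4.47 and -2.92 on the Ruantiaohongmei arrays, against 3.96 and 3.86 on the Xiyeqing arrays. The probe was well above background on all 4 arrays, and the cultivars' arrays were far from overlapping. The difference was -7.60 ± 0.47 (SE, 2 arrays per cultivar; limma adjusted p = 0.000553), a 195-fold lower signal in Ruantiaohongmei. The fold was 114 without Ruantiaohongmei replicate 1, 333 without Ruantiaohongmei replicate 2 and 63.9 with the normexp background correction. The apricot arrays lay at 3.31 to 4.36, near the Xiyeqing arrays. In the authors' deposited table the log2 difference was -7.14, with an unadjusted p of 0.0485.

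Neighbouring steps of the same pathway did not pass the test. Of the 9 measured phenylpropanoid, flavonoid and lignin probes, chalcone synthase was the only one called, 6 had a positive difference and the list median was 0.23. The median was -0.10 without Xiyeqing replicate 1, 0.03 without Ruantiaohongmei replicate 1 and 0.56 without Ruantiaohongmei replicate 2. The probes include phenylalanine ammonia-lyase, which opens the pathway upstream of chalcone synthase, and cinnamoyl-CoA reductase on the lignin branch. The MYB factor pkMYB2 (FJ860135.1, of a family that switches flavonoid genes on or off) had -1.11 and -2.52 on the Ruantiaohongmei arrays and -2.83 and -3.03 on the Xiyeqing arrays, a difference of 1.12 ± 0.51 (SE; limma adjusted p = 0.728). MYB185 (EF640705.1, from an almond clone) had 5.92 and 5.60 in Ruantiaohongmei and 5.40 and 4.51 in Xiyeqing, a difference of 0.81 ± 0.31 (SE; limma adjusted p = 0.608).

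Inosine-5'-monophosphate dehydrogenase (AF068844.1, from peach), which commits purine synthesis to guanine nucleotides, shared the smallest adjusted p of all 9125 probes with 1 probe that has no description. The Ruantiaohongmei arrays read -3.86 and -3.70, the Xiyeqing arrays 2.45 and 2.50. Each pair of arrays agreed to within 0.2, and the probe was well above background on all 4. Ruantiaohongmei fell by 6.25 ± 0.21 relative to Xiyeqing (SE, 2 arrays per cultivar; limma adjusted p = 5e-05), a 76.3-fold lower signal (24.7-fold with normexp). The apricot arrays lay at 3.06 to 3.51, again on the Xiyeqing side. Contig1397, the probe at the same adjusted p, had nearly the same levels. It read -3.77 and -3.82 in Ruantiaohongmei, 2.20 and 2.22 in Xiyeqing and 3.08 to 3.51 in apricot. Whether both probes read the same transcript was not tested.

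The calls for chalcone synthase and inosine-5'-monophosphate dehydrogenase held in every alternative limma fit that was run. They share this with 2 called probes that have no description. The slide-row difference between the cultivars also applies to the apricot arrays, since Manao shared the row of Ruantiaohongmei and Zhenkui that of Xiyeqing. Subtracting the Manao minus Zhenkui difference cancels an additive row effect and takes up any difference between those cultivars. The result was -6.83 for chalcone synthase (limma adjusted p = 0.0126) and -6.04 for inosine-5'-monophosphate dehydrogenase (limma adjusted p = 0.00073).

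**Figure D3:**
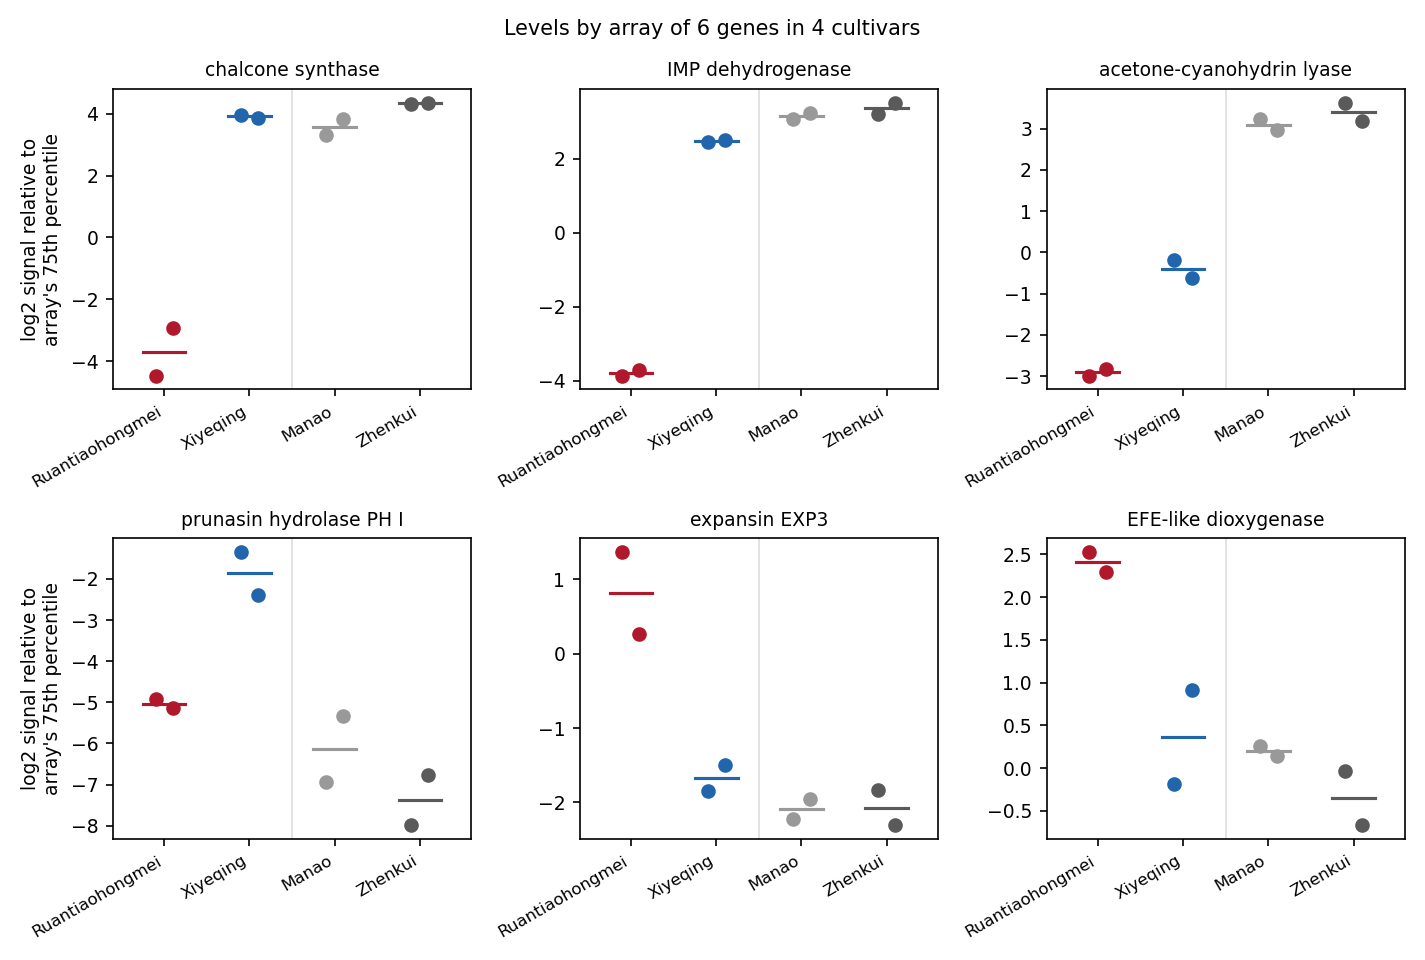
Level of 6 genes on each array (points, log2 relative to the 75th percentile; short lines are means of 2 arrays), in the order Ruantiaohongmei, Xiyeqing, Manao, Zhenkui. For chalcone synthase and inosine-5'-monophosphate dehydrogenase both Ruantiaohongmei arrays lie at or below -2.92 and all other arrays at or above 2.45.

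All 7 measured probes of cyanogenic glucoside breakdown had a negative difference, with a median of -0.80 and 1 call. The median was -0.26 without Xiyeqing replicate 1 and -1.44 without Xiyeqing replicate 2. At 5 of the 7 both Ruantiaohongmei arrays lay below both Xiyeqing arrays. Over all tested probes the arrays of the cultivars did not overlap at 30.3%, with Ruantiaohongmei lower at 19.4% and higher at 11.0%. The called member was the putative acetone-cyanohydrin lyase (EF640662.1, from an almond clone), an enzyme type that splits cyanohydrins into a carbonyl compound and hydrogen cyanide. It had -2.99 and -2.83 on the Ruantiaohongmei arrays, against -0.19 and -0.62 on the Xiyeqing arrays. Its fall was 2.51 ± 0.26 (SE; limma adjusted p = 0.0101), 5.68-fold (3.02-fold with normexp). Apricot fruit was far above both cultivars at 2.96 to 3.63. The call was lost with the P. mume arrays fitted alone (adjusted p = 0.101), without Ruantiaohongmei replicate 2 (0.0514) and without Xiyeqing replicate 1 (0.0747). The difference of cultivar differences was -2.19 (limma adjusted p = 0.129).

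Prunasin hydrolases remove the sugar from prunasin, the step before the mandelonitrile lyases, and were named from black cherry (Prunus serotina). Isoform PH I (U50201.2) had -4.91 and -5.15 in Ruantiaohongmei and -1.34 and -2.38 in Xiyeqing, a difference of -3.16 ± 0.63 (SE; limma adjusted p = 0.122). Isoform PH B (AF411009.1) had -3.20 and -2.86 in Ruantiaohongmei and -1.08 and -1.92 in Xiyeqing, a difference of -1.53 ± 0.60 (SE; limma adjusted p = 0.61). Neither passed the test. The arrays of the cultivars did not overlap at either probe, as a rule that chose PH I required. PH I passed in 1 of 19 alternatives, the fit on the authors' deposited log2 values, at -2.29 (limma adjusted p = 0.0292). Among the alternatives its difference ran from -3.68 to -1.20. For PH I only 1 Ruantiaohongmei array and 1 apricot array were well above background. The apricot arrays were low for PH I (-7.98 to -5.33) and above both cultivars for PH B (0.37 to 2.52). The other members, PH C and the mandelonitrile lyases, had differences between -0.80 and -0.44. The black cherry isoforms are close relatives of one another, so their probes may share signal.

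**Figure D4:**
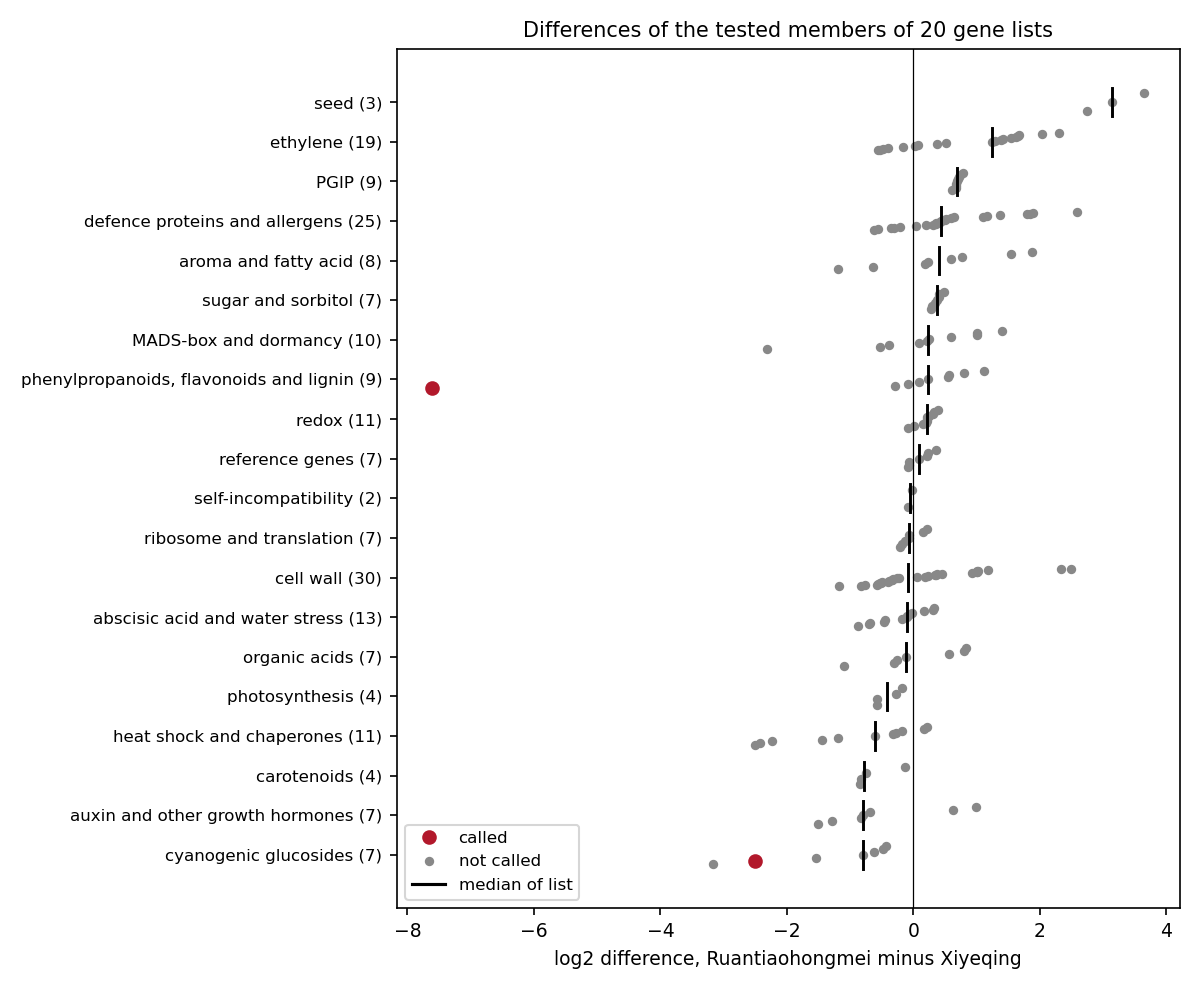
Difference of each measured member (points) and its median (line) for the 20 gene lists, Ruantiaohongmei minus Xiyeqing on the log2 scale. The median is 3.14 for the seed list and -0.80 for the cyanogenic list, and called members are marked.

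The expansin EXP3 (AF350938.1, from sour cherry), of the family that loosens cell walls without cutting them, lay just outside the threshold on the higher side. It had 1.37 and 0.26 on the Ruantiaohongmei arrays, against -1.84 and -1.50 on the Xiyeqing arrays. The difference was 2.49 ± 0.38 (SE; limma adjusted p = 0.0515), so it was not called. It passed the threshold in 6 of 20 alternatives and not in the other 14. In those of the 6 that kept all arrays, limma adjusted p lay between 0.0363 and 0.0448. Among the 20 its difference ran from 1.93 to 3.04. Apricot levels were -2.30 to -1.84, on the Xiyeqing side. Just inside the threshold lay probes with no description at adjusted p of 0.0481 and 0.0486, and the next outside EXP3 were at 0.0538 and 0.0543.

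Of the 30 measured cell wall genes, EXP3 included, 0 were called by limma and 2 had an unadjusted p under 0.05. The list median was -0.08, with 15 members positive and 15 negative. The tested endo-polygalacturonase probe (DQ340809.1) had -4.91 and 1.25 in Ruantiaohongmei and -5.34 and -3.0 in Xiyeqing. Its difference of 2.34 ± 1.78 (SE; limma adjusted p = 0.909) changed sign, to -0.74, without Ruantiaohongmei replicate 2. Xyloglucan endotransglycosylase XET1 (AF534870.1), which cuts and rejoins xyloglucan chains and was chosen after its values were seen, had 4.00 and 4.36 in Ruantiaohongmei and 0.57 and 5.76 in Xiyeqing. Here it was the Xiyeqing arrays that stood apart, and the difference of 1.01 ± 1.41 (SE) was not called.

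Ethylene genes had a list median of 1.25, with 14 of 19 members positive. By limma 0 of the 19 were called and 3 had an unadjusted p under 0.05, against 7.44% of all tested probes. The arrays of the cultivars overlapped at 13, and without overlap Ruantiaohongmei was higher at 4 and lower at 2. Over all tested probes it was higher without overlap at 11.0% and lower at 19.4%. Without Ruantiaohongmei replicate 2 the median was -0.12, and without Xiyeqing replicate 1 it was 0.28. Most positive members code for ACC synthase or ACC oxidase, the last steps of ethylene synthesis.

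An ethylene-forming-enzyme-like dioxygenase (U97530.1, from apricot) belongs to the enzyme family that includes ACC oxidase. It had 2.53 and 2.29 in Ruantiaohongmei and -0.18 and 0.92 in Xiyeqing, a difference of 2.04 ± 0.39 (SE; limma adjusted p = 0.112). ERF1a (FJ026009.1, from Japanese plum), an ethylene response transcription factor, had 1.17 and 1.69 in Ruantiaohongmei and -0.02 and -0.22 in Xiyeqing, a difference of 1.55 ± 0.29 (SE; limma adjusted p = 0.107). The ACC oxidase probe AJ890087.1 had 1.98 and 2.61 in Ruantiaohongmei and 0.32 and 1.76 in Xiyeqing, a difference of 1.25 ± 0.48 (SE; limma adjusted p = 0.593). None of these was called. Both Ruantiaohongmei arrays lay above both Xiyeqing arrays at each, as a rule that chose these probes required. Over all tested probes this held at 11.0%.

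ACC synthase was high on a single array. ACS2 (AF184077.1) had -5.96 and -1.35 in Ruantiaohongmei and -6.79 and -5.13 in Xiyeqing, a difference of 2.31 ± 1.33 (SE; limma adjusted p = 0.828). ACS4 (EU034653.1, chosen after its values were seen) had -4.36 and 3.04 in Ruantiaohongmei and -3.04 and -1.62 in Xiyeqing. In both, Ruantiaohongmei replicate 2 alone was high and the replicate 1 array of that cultivar was near or below the Xiyeqing arrays. The difference of ACS4 was 1.67 ± 2.01 (SE; limma adjusted p = 0.969). It was 5.37 without Ruantiaohongmei replicate 1 (adjusted p = 0.0282) and -2.02 without Ruantiaohongmei replicate 2.

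The seed list showed the same dependence at a larger size. Its 3 tested members had differences of 2.74 to 3.65 and 0 were called by limma, with 0 at an unadjusted p under 0.05. The storage protein pru2 (X78120.1) had -7.71 and 1.01 in Ruantiaohongmei and -8.07 and -5.93 in Xiyeqing. Apricot oleosin (AY962832.1) had -5.40 and 1.31 in Ruantiaohongmei and -5.48 and -4.90 in Xiyeqing. Without Ruantiaohongmei replicate 1 the difference of pru2 was 8.01 (adjusted p = 0.0247), that of oleosin 6.49 (adjusted p = 0.0106) and that of the almond oleosin ole1 (X78118.1, chosen after its values were seen) 6.11 (adjusted p = 0.0278). Without Ruantiaohongmei replicate 2 they were -0.71, -0.21 and -0.63. The seed list was thus high on 1 Ruantiaohongmei array and low on the other.

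Lipoxygenases oxidise fatty acids on the way to aroma compounds. The probe EF568783.1 from peach had -6.85 and 1.52 in Ruantiaohongmei and -7.08 and -1.99 in Xiyeqing, and EU439430.1 from apricot had -6.28 and 2.18 in Ruantiaohongmei and -5.89 and -1.31 in Xiyeqing. Replicate 2 was the higher array in both cultivars. Their differences, 1.87 ± 2.61 and 1.55 ± 2.57 (SE), were not called, nor was any of the 8 measured aroma and fatty acid members, whose median was 0.41. It was 0.88 without Ruantiaohongmei replicate 1 and -0.82 without Ruantiaohongmei replicate 2, and -0.15 without Xiyeqing replicate 1.

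Chaperones and other heat shock proteins had a list median of -0.61, with 9 of 11 members negative and 0 called by limma. The median was -0.36 without Xiyeqing replicate 2. At 5 of the 11 both Ruantiaohongmei arrays lay below both Xiyeqing arrays, against 19.4% of all tested probes, and 4 had an unadjusted p under 0.05, against 7.44%. These 4, named after their values were seen, are proteins of folding. The calreticulin-like plum clones, EY458103.1 and EY458122.1, stand for a calcium-binding chaperone of the endoplasmic reticulum. EY458103.1 had -3.89 and -3.34 in Ruantiaohongmei and -2.11 and -2.24 in Xiyeqing, a difference of -1.44 ± 0.26 (SE; limma adjusted p = 0.0899). EY458122.1 had -2.46 and -0.95 in Ruantiaohongmei and 0.75 and 0.30 in Xiyeqing, a difference of -2.23 ± 0.46 (SE; limma adjusted p = 0.125). Without Ruantiaohongmei replicate 2 it was called, at -2.99 (adjusted p = 0.0184), and without Ruantiaohongmei replicate 1 the difference was -1.48.

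Heat shock protein 90 (EF640665.1), a chaperone of signalling proteins, had 2.81 and 3.10 in Ruantiaohongmei and 4.38 and 3.93 in Xiyeqing, a difference of -1.20 ± 0.28 (SE; limma adjusted p = 0.187). Protein disulfide isomerase (AF298829.1), which pairs cysteines in new proteins, had 4.60 and 4.74 in Ruantiaohongmei and 5.35 and 5.21 in Xiyeqing, a difference of -0.61 ± 0.19 (SE; limma adjusted p = 0.425). The small heat shock proteins behaved otherwise, with 1 array standing out. GQ850382.1 had -1.27 and 1.60 in Ruantiaohongmei and -0.64 and 5.99 in Xiyeqing, and AY500559.1 had -0.79 and 1.98 in Ruantiaohongmei and -0.25 and 6.31 in Xiyeqing. Without Xiyeqing replicate 2 their differences turned to 0.81 and 0.85.

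Polygalacturonase-inhibiting proteins (PGIPs), cell wall proteins that block the pectin-cutting enzymes of fungi, gave 9 positive differences between 0.62 and 0.79. None was called, and the arrays overlapped at all 9. AY903221.1 from peach had 4.36 and 3.31 in Ruantiaohongmei, against 2.10 and 4.00 in Xiyeqing. Xiyeqing replicate 1 was the lowest P. mume array at each of the 9 probes, with levels of 1.07 to 3.34, and the list median became -0.32 without it. The PGIP probes are from near-identical genes of several species and are not 9 separate observations.

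The wider set of defence proteins and allergens had 20 of 25 members positive, a median of 0.44 and 0 calls by limma, with 0 at an unadjusted p under 0.05. The median was -0.15 without Xiyeqing replicate 1 and 1.65 without Xiyeqing replicate 2. Its 7 probes of the Pru p 1 family (birch-pollen-related fruit allergens of the PR10 type) moved as one. They lay at 7.10 to 8.20 and 7.15 to 8.24 on the Ruantiaohongmei arrays and at 5.31 to 6.51 and 7.95 to 9.07 on the Xiyeqing arrays. The Xiyeqing arrays therefore bracketed the Ruantiaohongmei arrays. Beta-1,3-glucanase (AJ002748.1), which attacks fungal walls, had 1.13 and 3.68 in Ruantiaohongmei and -4.37 and 4.00 in Xiyeqing, and class IV chitinase (EF640689.1) had -2.59 and 5.50 in Ruantiaohongmei and -3.01 and 2.15 in Xiyeqing. Their differences, 2.59 ± 2.46 and 1.89 ± 2.59 (SE), were not called. A latex-like protein (AJ002747.1), of a family related to these allergens, had 2.23 and 1.02 in Ruantiaohongmei and -0.31 and 0.91 in Xiyeqing, a difference of 1.33 ± 0.50 (SE; limma adjusted p = 0.584).

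Genes of flowering time and dormancy numbered 10, with a median of 0.24 and 0 called by limma. Leaving out the replicate 1 array of Ruantiaohongmei turned the median to -0.20, and that of Xiyeqing to -0.23. The APETALA1-like MADS1 (EU079377.1), a floral identity factor, was not well above background on either Ruantiaohongmei array, at -6.41 and -7.08. On the Xiyeqing arrays it read -4.41 and -4.44. Its signal was at least 1.59-fold lower in Ruantiaohongmei on this scale, without a call (limma adjusted p = 0.562). Among the alternatives its difference shrank to as little as -0.20, smaller in size than the log2 of that bound. The dormancy-associated dam5 (DQ863251.1) had -2.96 and -1.88 in Ruantiaohongmei and -5.39 and -2.27 in Xiyeqing, a difference of 1.41 ± 0.90 (SE; limma adjusted p = 0.855).

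Hormone and stress lists gave no call either. Auxin-binding proteins led the growth hormone list, whose 7 members had a median of -0.80. It was 0.30 without Ruantiaohongmei replicate 1 and -1.93 without Ruantiaohongmei replicate 2. ABP2 (EU310513.1) had -0.22 and 3.05 in Ruantiaohongmei and 3.17 and 2.68 in Xiyeqing, and ABP19 (GQ169610.1) 0.37 and 3.00 in Ruantiaohongmei and 3.26 and 2.68 in Xiyeqing. In both, Ruantiaohongmei replicate 1 alone was low. Of 13 abscisic acid and water stress members 10 were negative, with a median of -0.10, which ran from -0.68 to 0.16 without 1 array each. The cold-response factor CBFa (HM099909.1, from P. mume) had -1.53 and -0.87 in Ruantiaohongmei and -0.69 and 0.04 in Xiyeqing. Its difference was -0.88 ± 1.30 (SE; limma adjusted p = 0.975), with the Zhenkui arrays, which enter the spread, at 3.54 and -1.20. A probe of the same gene from the cultivar Bungo (HM099907.1) gave -0.71.

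Sugar and sorbitol metabolism, organic acids and carotenoids had no called member. All 7 sugar and sorbitol members were positive at 0.28 to 0.49, and the arrays overlapped at each. Their median was -0.11 without Ruantiaohongmei replicate 1 and 0.80 without Ruantiaohongmei replicate 2. The hexose transporter stp2 (AF367455.1) had 3.26 and 2.07 in Ruantiaohongmei and 2.28 and 2.08 in Xiyeqing, and sucrose synthase sus1 (AF367450.1) had -1.75 and -0.44 in Ruantiaohongmei and -1.52 and -1.49 in Xiyeqing. The organic acid list had a median of -0.12 over 7 members, 0.18 without Ruantiaohongmei replicate 1 and -1.46 without Xiyeqing replicate 1. Phosphoenolpyruvate carboxykinase (AY962819.1), which turns malate-derived oxaloacetate towards sugar, had 4.90 and 6.30 in Ruantiaohongmei and 2.19 and 7.34 in Xiyeqing. The plasma membrane proton pump PPA2 (AJ271438.1) was never well above background in P. mume, so no fold is given.

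All 4 carotenoid members were negative, with a median of -0.78 and overlapping arrays. The median was -0.08 without Ruantiaohongmei replicate 1, -0.07 without Xiyeqing replicate 2, -1.40 without Ruantiaohongmei replicate 2 and -1.52 without Xiyeqing replicate 1. Zeaxanthin epoxidase (AF071888.1), which makes violaxanthin, had -0.24 and 0.90 in Ruantiaohongmei and 0.49 and 1.86 in Xiyeqing, and the second epoxidase probe (AF159948.1) had -0.14 and 0.99 in Ruantiaohongmei and 0.57 and 1.93 in Xiyeqing. Their differences were -0.85 ± 0.51 and -0.83 ± 0.50 (SE). Neither was called.

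Housekeeping lists were near the median of all probes. Reference genes had a median of 0.09 with differences of -0.08 to 0.35, and ribosome and translation genes a median of -0.07 with differences of -0.21 to 0.22. Redox genes had a median of 0.22, photosynthesis genes -0.42 and the self-incompatibility probes -0.05. Without 1 array each these medians ran from -0.07 to 0.45, from -0.74 to -0.10 and from -0.22 to 0.13 in the same order. Chlorophyll a/b binding protein Lhcb-Pp2 (AF039598.1), of the light-harvesting antenna, had 5.66 and 6.45 in Ruantiaohongmei and 6.70 and 6.54 in Xiyeqing. All 4 photosynthesis probes were well above background on every array.

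Of the 54 called probes, 51 carry no protein name: 43 have no description and 8 are expressed sequence tags. The largest fall was at actca_Cluster3514.seq.Contig1, with -4.97 and -6.63 in Ruantiaohongmei and 4.40 and 3.89 in Xiyeqing (limma adjusted p = 0.000312). Only 1 of its Ruantiaohongmei arrays was well above background, and its difference was -9.95 ± 0.55 (SE), or -6.72 with normexp. The next, actca_Cluster4213.seq.Contig1, was at the lowest level on both Ruantiaohongmei arrays, -7.71 and -7.08, against 1.82 and 1.21 in Xiyeqing, so its signal was at least 97.4-fold lower on this scale (limma adjusted p = 5.24e-05). It stayed called with normexp at 22.2-fold and with all levels raised to the detection limit at 78.3-fold. Both probes were also near background in apricot, at -5.78 to -4.84 and -7.94 to -7.25. Xiyeqing was thus the single cultivar with a clear signal.

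The largest rise was at actca_Cluster2171, with -0.14 and -0.23 in Ruantiaohongmei, against -4.20 and -4.48 in Xiyeqing. Its difference was 4.15 ± 0.20 (SE; limma adjusted p = 0.000144), a 17.8-fold higher signal in Ruantiaohongmei (5.73-fold with normexp). The apricot arrays, at -4.45 to -4.18, matched Xiyeqing. CB821656.1 had -4.59 and -3.97 in Ruantiaohongmei and was not well above background in Xiyeqing, at -7.32 and -7.52, at least 2.67-fold higher in Ruantiaohongmei (limma adjusted p = 0.0193). It lost its call in 8 alternatives, where its adjusted p lay between 0.0525 and 0.674. Its difference was 0.57 with normexp, 0.50 with all levels raised to the detection limit and 1.30 in the authors' deposited log2 values, each under the log2 of that bound.

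Detection divided the called probes. At 25 of the 47 lower probes neither Ruantiaohongmei array was well above background while both Xiyeqing arrays were. For these only bounds exist: 13 were at least 2-fold, 10 had bounds between 1.03-fold and 2-fold, and 2 allowed none. A further 21 of the 54 were well above background on all 4 P. mume arrays, 16 lower and 5 higher in Ruantiaohongmei. When all levels were raised to the highest detection limit of the arrays, a setting chosen after seeing the data, 42 probes were called and 30 of the 54 were among them.

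At 31 of the 54 called probes the apricot mean was nearer Xiyeqing and at 23 nearer Ruantiaohongmei. Of the 21 actca clusters among the 47 lower probes it was nearer Ruantiaohongmei at 17, and of the 26 others nearer Xiyeqing at 23. For a lower probe this follows from order alone where apricot lay below both cultivars (14 probes) or above both (21). At 14 of the 47 no apricot array was well above background, and some of these were tested only because of the Xiyeqing arrays. The 8 called sequence tags come from apricot fruit libraries. Nearness over all tested probes of each kind was not counted, so no link to the identifier is drawn. The share called was alike in the classes, at 0.541% of actca clusters, 0.695% of CB and CV entries, 0.614% of contigs and 0.483% of other GenBank entries. Where the clusters and contigs came from is not stated in the sources used here.

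**Figure D5:**
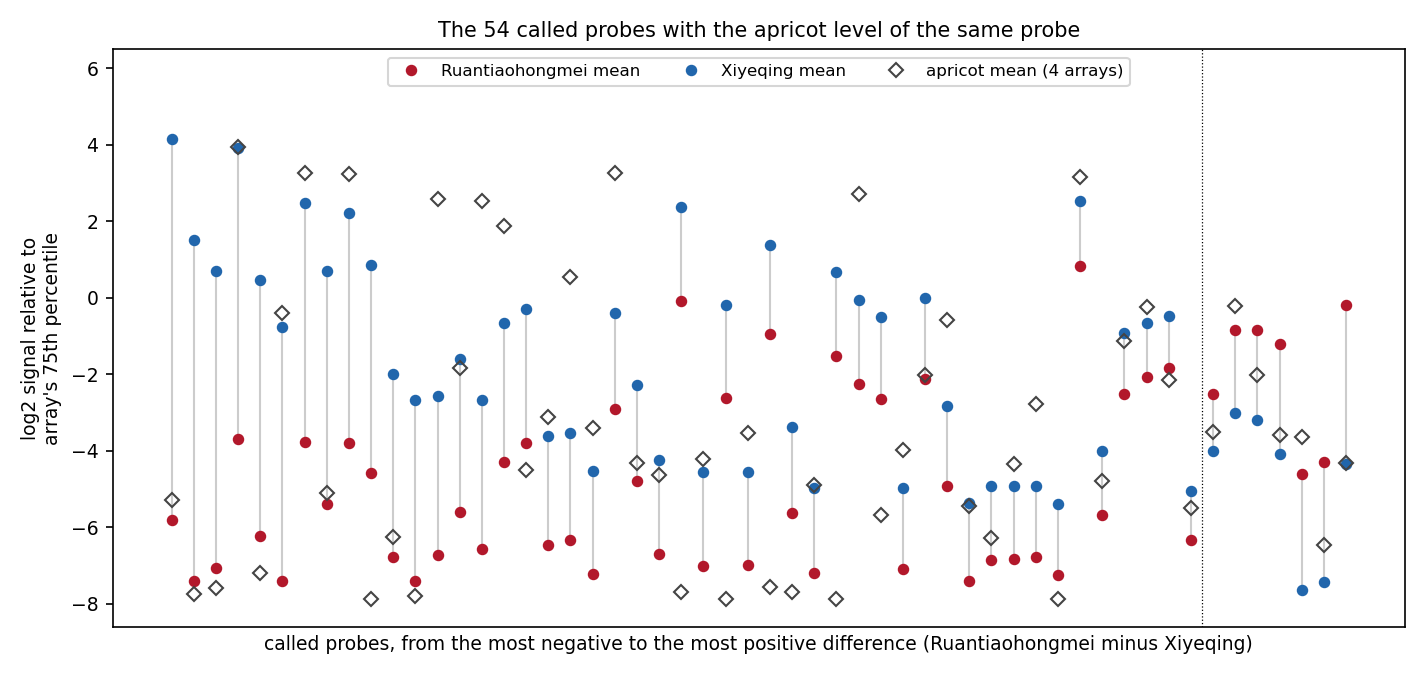
Mean level of each of the 54 called probes in Ruantiaohongmei (2 arrays), Xiyeqing (2 arrays) and apricot (4 arrays), as log2 relative to the 75th percentile, with probes ordered by their difference. The apricot mean lies above both cultivars at 23 probes, below both at 14 and between them at 17.

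In the difference of cultivar differences, 18 probes passed the test (0.197% of those tested), 15 lower and 3 higher, and all 18 were among the 54. All 54 kept their sign there, and 51 kept at least 0.5 of their size. This is not separate evidence, because the contrast contains the cultivar difference by which the 54 were chosen. At these probes the Manao minus Zhenkui difference had a median size of 0.24, against 0.29 over all tested probes. Manao and Zhenkui lay at least 2-fold apart at 4 of the 54, and at 4.94% of all tested probes. A row effect that differs between species or columns does not cancel in this contrast.

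In the authors' deposited table, 58 of 10384 probes (0.559%) had an unadjusted p under 0.05 and at least a 2-fold difference, 13 higher and 45 lower in Ruantiaohongmei. Their deposited 2-fold list for this pair held 190 probes (1.83%), 95 each way, of which 41 had a deposited p under 0.05. That list contained 34 of the 54 probes called here.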

How the data were processed

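Fruit RNA was labelled with Cy3 and hybridised to 8 one-colour Agilent arrays on 1 slide. The intensity values used are processed signals, background-subtracted and detrended by Agilent Feature Extraction 10.7.1.1 per the file headers (8.1 per the submitters' processing notes). Also deposited by the authors were log2 values, with a normalization not stated in the sources used here, and comparison tables with a ratio (fold) and an unadjusted p-value per probe. Here log2 processed signal was scaled to each array's 75th percentile over non-control probes, with outlier spots left out and spots of a probe averaged. Tested probes were well above background on each array of some cultivar (9125 of 10384; 4 lacked a value on 1 array) in a limma 3.58.1 fit (R 4.3.3) of the 4 cultivar means over all 8 arrays. Calls needed an adjusted p (Benjamini-Hochberg) under 0.05. A probe not well above background on either array of a cultivar has only a bound there: the brighter mean against the mean of, per array, the higher of the lowest signal well above background and its own.

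Names came from the authors' 2-fold lists: 658 probes were described, 408 as expressed sequence tags, 244 as a protein, of which 236 were tested. The 20 gene lists are word patterns over these descriptions, matching 207 probes. The cultivar pair, lists and rules were chosen with earlier results of these data known, and the patterns were completed after values were seen. Named genes were called proteins, at most 3 called members per list in a direction, up to 2 uncalled members of each list with the largest differences, proteins at an unadjusted p under 0.05 without overlap where fewer than 5 were called in a direction, and the 2 largest called probes each way without a protein name. Genes outside this rule are marked. Alternatives changed the scaling, background correction (normexp, offset 50, on median signals, as the files hold no mean signal), filter, model, block and arrays. The fit was tested on simulated data. The number of arrays limits the precision.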

Additional observations from a re-analysis of the deposited data

How the results depend on the processing

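Against 54 called probes, all at least 2-fold, 13 were called with the 4 P. mume arrays alone, 28 with normexp, 17 of 7696 tested when well above background on all 4 P. mume arrays, and 22 to 54 without 1 array each. The 54 calls without Ruantiaohongmei replicate 1 shared 29 with the full set. The added floor left 34 calls of at least 2-fold, and Benjamini-Hochberg on the authors' deposited p-values left 2, both with a deposited difference of 0. Lower calls made up 87% of the 54, 66.7% without Ruantiaohongmei replicate 1 and 70.6% under the filter on all 4 arrays. With the replicate number as a block 47 were called, 40 shared; the labels give the numbers no shared source, so they were not taken as pairs, and deviations of same-numbered arrays correlated at 0.117 between Ruantiaohongmei and Xiyeqing and at -0.176 to 0.393 between other cultivars. The median difference of -0.06 was 0.0103 centred on medians, -0.002 with quantile normalization, 0.0705 with normexp, -0.0092 in the deposited log2 values, -0.0432 with no filter, -0.0304 under the filter on all 4 arrays, -0.0164 with the floor, and -0.0731 to -0.041 without 1 array each. The 18 calls of the difference of differences became 11 with normexp, 4 under the filter on all 4 arrays and 9 to 21 without 1 array each. List members called were 2, against 1 with the P. mume arrays alone, 4 in the deposited log2 values and 1 to 8 without 1 array each. Near 0, RNase PD2 (AF202030.1) turned to 0.0513 centred on medians and PPA2 (AJ271438.1) to 0.17 with normexp. Differences that changed sign without 1 array had these ranges: ABP2 (EU310513.1) -3.14 to 0.12, ABP19 (GQ169610.1) -2.60 to 0.0377, stp2 (AF367455.1) -0.11 to 1.08, magnesium chelatase (FJ842115.1) -1.65 to 0.49, S-locus-like kinase (AY645718.1) -0.27 to 0.11, RNase PD2 -0.17 to 0.14, catalase CAT1 (AY162277.1) -0.0872 to 0.74, chitinase (EF640689.1) -2.16 to 5.93, endo-polygalacturonase (DQ340809.1) -0.74 to 5.42, sus1 (AF367450.1) -0.24 to 1.07, lipoxygenases (EF568783.1 and EU439430.1) -2.31 to 6.05 and -2.68 to 5.77, pru2 (X78120.1) -0.71 to 8.01, oleosin (AY962832.1) -0.21 to 6.49, ole1 (X78118.1) -0.63 to 6.11, elongation factor 1 alpha (AY962821.1) -0.061 to 0.49, ACS4 (EU034653.1) -2.02 to 5.37, PGIP (AY903221.1) -0.16 to 1.74, beta-1,3-glucanase (AJ002748.1) -1.59 to 6.78, dam5 (DQ863251.1) -0.15 to 2.97, phosphoenolpyruvate carboxykinase (AY962819.1) -1.75 to 3.40, ubiquitin carrier protein (AY962825.1) -0.16 to 0.87, XET1 (AF534870.1) -1.58 to 3.61 and the small heat shock proteins (GQ850382.1 and AY500559.1) -5.82 to 0.81 and -5.71 to 0.85. The cause of these changes was not tested. Leaving out 1 array could not change the sign of any of the 54 probes, since the cultivars' arrays did not overlap there. Of the 54, 51 kept their sign with normexp and 47 with the floor, and 4 were called in every alternative limma fit. The filter on all 4 P. mume arrays tested only 21 of the 54, so the others could not be called there.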

Other observations

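Some other described proteins also differed widely between arrays of a cultivar. They are named here after their values were seen. A carbonic anhydrase from an almond clone (EF640698.1), an enzyme of carbon dioxide supply in green tissue, had -4.22 and -4.66 in Ruantiaohongmei and -3.33 and 0.89 in Xiyeqing, a difference of -3.23 ± 1.52 (SE; limma adjusted p = 0.732). The knotted-like factor KNOPE1 (DQ358050.1), of a family that keeps meristem cells undifferentiated, had a difference of -1.53 ± 1.52 (SE; limma adjusted p = 0.947) and lay 5.18 apart between the Ruantiaohongmei arrays, the higher one being replicate 2. A metallothionein-like protein (AF028013.1), which binds metal ions, lay 2.53 apart between the Ruantiaohongmei arrays and 5.77 between the Xiyeqing arrays, replicate 2 being higher in both, while its difference between cultivars was 0.26. The NAM-like transcription factor (AJ704829.1) had gaps of 2.86 and 4.65 in the same order and a difference of 0.13.

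Over all 236 tested probes that name a protein, the cultivar means were at least 2-fold apart at 53, and at 34 of these the arrays of the cultivars overlapped. The Ruantiaohongmei arrays were at least 2-fold apart from each other at 95 of the 236, and the Xiyeqing arrays at 81. Over all tested probes the shares were 11.3% for the Ruantiaohongmei arrays, 8.39% for the Xiyeqing arrays and 4.84% for the cultivar means. Descriptions came only from the authors' 2-fold lists on these samples, so these counts are not independent evidence.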
